A study of Mus musculus with 15 samples.

Results

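CIS and the SOCS proteins are the inhibitors that cytokine receptors induce against themselves. The family was described here from every probe set annotated to Cish and Socs1 to Socs7, the 8 genes that encode it. Choosing by gene symbol gave 20 of the 36701 non-control probe sets of the series, 6 on the U74A array, 14 on U74B and 0 on U74C, for 8 of the 15964 genes that had a probe set with 1 symbol. The cells were Ba/F3-beta, from a mouse pro-B cell line that needs IL-3 to grow. Cells that had received Stat5 siRNA, directed against Stat5a and Stat5b, were given IL-3 for 30 min or for 2 h. Cells with a scrambled control siRNA were given IL-3 for 30 min or for 2 h, or left without it. Each of these 5 conditions had 1 array per design, so no value below has a replicate check and no difference was tested. Stat5 siRNA cells without IL-3 were not analysed here, so a basal effect of the siRNA cannot be told apart from an effect on the IL-3 response.

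Binding of IL-3 to its receptor activates the kinase JAK2, which phosphorylates the receptor and the transcription factors STAT5A and STAT5B. Among the genes that STAT5 proteins switch on are Cish and several SOCS genes. Their products carry an SH2 domain, which binds phosphorylated tyrosines on receptors or kinases, and a SOCS box, which recruits a ubiquitin ligase. SOCS1 and SOCS3 also block JAK activity directly through a short kinase inhibitory region. SOCS4 to SOCS7 have long N-terminal regions and are less closely tied to JAK-STAT signalling.

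Values are MAS5 signals, a linear intensity per probe set, with all arrays brought to one level. A floor of 119.9 stood in for detection calls. It is the signal that 14553 probe sets reached on their highest array, the number that passed the noise and detection filters according to the design text. Of the 20 family probe sets, 11 reached the floor on at least 1 array, at least 1 for each of the 8 genes, 7 reached it on all 5 arrays, and 9 on none. Where 1 signal of a ratio lay under the floor, the floor took its place and the ratio is a bound, written "at least" or "or lower". A gene was called higher or lower at 2-fold or more, using the median over its measured probe sets. The spread of a single log2 ratio, read as an SD from pairs of probe sets of 1 gene outside the family, was 0.25 and 0.32 for IL-3 at 30 min and 2 h, and 0.23 and 0.26 for Stat5 siRNA at 30 min and 2 h. This spread covers the probe sets but not separate cultures, and it covers the hybridisation only for pairs on different designs. Pairs on 1 design share their arrays, so an error common to a whole array cancels in them. The SD can therefore be too small.

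The siRNA targets were lower in the Stat5 siRNA cells at both times. The U74B probe set of Stat5b had a signal of 166 in Stat5 siRNA cells at 30 min, against 499 in control siRNA cells, which left 33.2%. At 2 h it had 126 in Stat5 siRNA cells, against 177 in control siRNA cells, which left 71.3%, and the control signal there was itself well below the 536 measured without IL-3. The brighter Stat5a probe set kept 50.6% of the control signal at 30 min and 53.6% at 2 h, on a probe set that can cross-hybridise. As for the identity of the cells, 5 of 7 IL-3-dependent haematopoietic markers reached the floor (Csf2rb, Csf2rb2, Il3ra, Ptprc and Spn), but of 11 pro-B and B lineage markers on the arrays only Cd79b did. Of the 6 erythroid and megakaryocyte markers on the arrays 5 reached the floor (Epor, Gata1, Hba-a1, Itga2b and Klf1). Of the 10 myeloid and mast cell and the 8 T and NK cell markers on the arrays, 0 reached it. Of the 8 fibroblast and epithelial markers 3 did, Cdh1, Col1a2 and Epcam, and their list summed to between 1486 and 1608 in the 5 conditions.

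Cish was called higher with IL-3 and lower with Stat5 siRNA at both times. Its product, CIS, docks on phosphorylated cytokine receptors and competes there with STAT5. The single Cish probe set, 100022_at on U74A, had a signal of 389 after 30 min of IL-3 and 645 after 2 h in Stat5 siRNA cells. In control siRNA cells it had 108 without IL-3, 1097 after 30 min and 1565 after 2 h. The order of the 5 arrays was therefore unstimulated, Stat5 siRNA at 30 min, Stat5 siRNA at 2 h, control siRNA at 30 min and control siRNA at 2 h. Both Stat5 siRNA signals lay below the lower of the IL-3 signals in control siRNA cells, and above the unstimulated signal.

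With control siRNA, Cish was at least 9.15-fold higher after 30 min of IL-3 and at least 13.1-fold higher after 2 h than without it. Stat5 siRNA lowered it 2.82-fold at 30 min, to 35.5% of control, and 2.42-fold at 2 h, to 41.2% of control. On the log2 scale these ratios were -1.49 and -1.28. They share no array, and they differed by 0.22, within the SD of a single ratio. Among the 6927 genes with both signals at or above the floor on every probe set measured at 30 min, 4 had a lower siRNA ratio than Cish, which ranked 5 from the lowest. At 2 h it ranked 7 from the lowest of 6703. IL-3 still went with a higher Cish signal in the siRNA cells. It was at least 3.25-fold at 30 min and at least 5.38-fold at 2 h above the unstimulated control siRNA cells, a comparison in which both the siRNA and IL-3 differ. From 30 min to 2 h Cish gained 0.73 on the log2 scale with Stat5 siRNA and 0.51 with control siRNA, both short of 2-fold.

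The Cish promoter is shown because it holds the sequence TTCNNNGAA, which STAT5 dimers recognise, more than once. The window runs from 250 bases before to 50 bases after the gene start in RefSeq, chr9:107296409-107296708 on the + strand of GRCm38.p6, with matches in capitals.
Cish: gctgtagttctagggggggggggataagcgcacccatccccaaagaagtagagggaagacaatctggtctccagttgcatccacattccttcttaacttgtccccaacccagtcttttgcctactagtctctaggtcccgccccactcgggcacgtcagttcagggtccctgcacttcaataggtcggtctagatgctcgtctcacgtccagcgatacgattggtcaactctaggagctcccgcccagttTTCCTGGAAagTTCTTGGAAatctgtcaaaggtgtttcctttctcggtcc
The matches were TTCCTGGAA, which begins at base 1 counted from the start, and TTCTTGGAA, which begins at base 12. The motif reads the same on both strands. Of 32851 promoter windows of this length in the table, 8.30% held at least 1 match. A match describes the letters and is no evidence of binding.

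**Figure D1:**
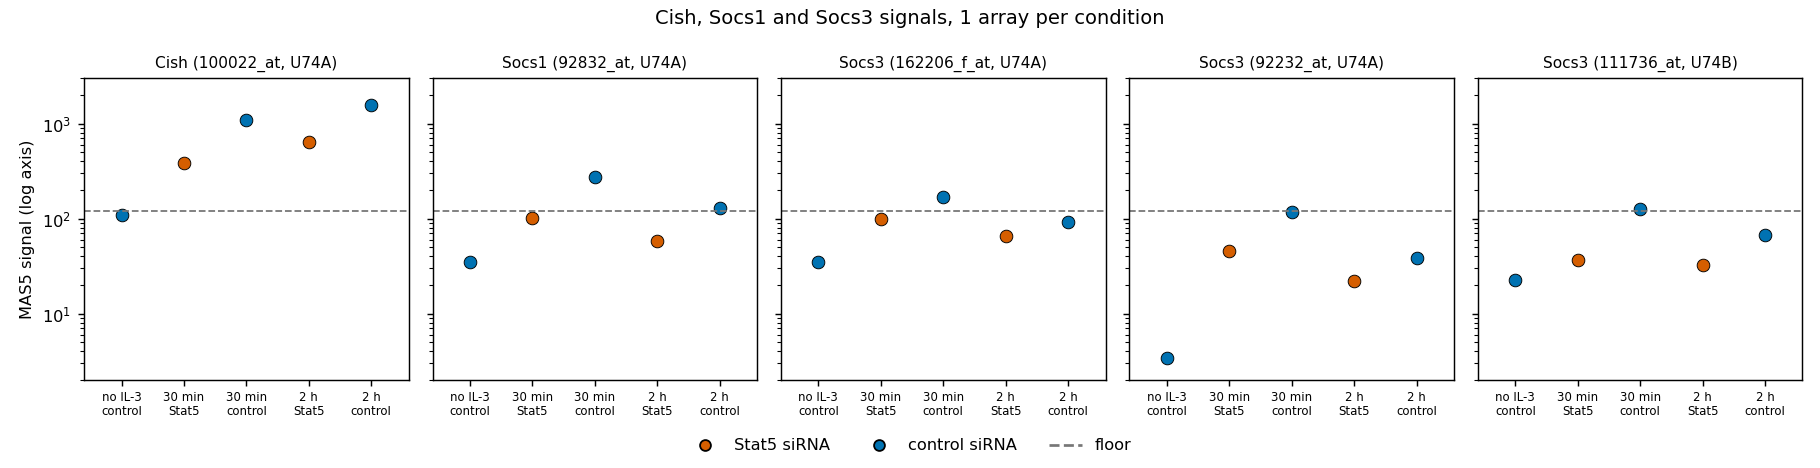
MAS5 signals (log axis) of the Cish, Socs1 and Socs3 probe sets, 1 point per array, with Stat5 siRNA in orange, control siRNA in blue and the floor of 119.9 dashed. In each panel the Stat5 siRNA point lies below the control siRNA point of the same time, and the unstimulated point is the lowest.

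Socs1 rose early with IL-3 and was lower with Stat5 siRNA. SOCS1 binds JAK kinases and blocks them, and it is best known as the brake on interferon signalling. Its probe set, 92832_at on U74A, had a signal of 101 after 30 min of IL-3 and 57.7 after 2 h in Stat5 siRNA cells, both under the floor. In control siRNA cells it had 35.1 without IL-3, 277 after 30 min and 128 after 2 h. Only the control siRNA arrays with IL-3 reached the floor, and the one at 2 h did so narrowly.

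In control siRNA cells Socs1 was at least 2.31-fold higher after 30 min than without IL-3. With Stat5 siRNA it was at least 2.31-fold lower than with control siRNA at 30 min, both bounds resting on the same floor and the same control array. As measured, the signal in Stat5 siRNA cells was 36.5% of control at 30 min and 44.9% at 2 h. The bound at 2 h was only 1.07-fold, so the 2 h difference was not called. Socs1 fell again in control siRNA cells and was 2.16-fold lower at 2 h than at 30 min (log2 ratio -1.11), whereas Cish had not fallen. In the Stat5 siRNA cells both signals were under the floor, so no ratio between the times was taken.

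Interferon response genes moved with the siRNA in the same cells, and Socs1 is also a target of the interferon-induced factor IRF1. Irf1 had a signal of 470 in Stat5 siRNA cells at 30 min, against 183 in control siRNA cells, and 34.1 against 43.8, both under the floor, at 2 h. At 30 min the Irf1 signal was thus higher with Stat5 siRNA, and that of Socs1 lower. In control siRNA cells both genes had their highest signal after 30 min of IL-3. Irf1 there had 131 without IL-3, against 183 after 30 min and 43.8 after 2 h. Whether Irf1 had a part in the Socs1 signal was not tested. Of 17 measured genes of an interferon response list, 7 were 2-fold or more higher with Stat5 siRNA at 30 min, where 0.308% of all genes were, and 0 lower, with a median log2 ratio of 0.82 against 0.00081 over all 8124 genes. At 2 h 8 of 20 were higher, where 0.504% of all genes were, and 0 lower, with a median of 0.68 against 0.0040 over 8132 genes. The largest ratios were those of the chemokine Ccl5, at least 13.8-fold at 30 min and at least 10.3-fold at 2 h. Irf7 was at least 3.73-fold and Irf1 2.57-fold higher at 30 min, and Oasl1 was 3.36-fold and Oasl2 at least 3.31-fold higher at 2 h. A gene under the floor with control siRNA was measured only through its Stat5 siRNA array and could not come out lower. On the probe sets used, Ccl5 at both times, Irf7 at 30 min and Oasl2 at 2 h were such genes. The counts of 0 lower and the medians therefore rest partly on this rule. The genes measured with IL-3, given next, are not the same set. IL-3 in control siRNA cells moved 0 of 11 past 2-fold at 30 min, where 0.711% of all genes were higher and 0.343% lower. The list median was 0.12, and the largest ratios were Oasl1 at 0.67, B2m at -0.66 and Stat2 at -0.53. At 2 h 1 of 12 was lower, where 1.63% of all genes were, the peptide transporter gene Tap1 (-1.01 or lower). B2m (-0.81) and Stat2 (-0.77) followed, and the list median was -0.18. The summed signal of erythroid and megakaryocyte markers was higher with the siRNA, by less than 2-fold. The 6 on the arrays, of which 5 reached the floor (Epor, Gata1, Hba-a1, Itga2b and Klf1), summed to 6718 in Stat5 siRNA cells at 30 min, against 4693 in control siRNA cells, and to 6086 against 3986 at 2 h. The IL-3-dependent haematopoietic markers summed to 9544 in Stat5 siRNA cells at 30 min, against 14177 in control siRNA cells, and to 13011 against 14393 at 2 h. Most of each sum was the signal of 1 probe set, that of the receptor chain gene Csf2rb on U74B. It had 5446 in Stat5 siRNA cells at 30 min, against 8361 in control siRNA cells, and 8115 against 8661 at 2 h. The part of these shifts in the family's siRNA ratios was not tested.

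The Socs1 promoter is shown beside these values because it holds the GAAA repeats that interferon regulatory factors recognise. The window is chr16:10785487-10785786 on the - strand of GRCm38.p6, from RefSeq, with GAAA, any 2 bases and GAAA again in capitals.
Socs1: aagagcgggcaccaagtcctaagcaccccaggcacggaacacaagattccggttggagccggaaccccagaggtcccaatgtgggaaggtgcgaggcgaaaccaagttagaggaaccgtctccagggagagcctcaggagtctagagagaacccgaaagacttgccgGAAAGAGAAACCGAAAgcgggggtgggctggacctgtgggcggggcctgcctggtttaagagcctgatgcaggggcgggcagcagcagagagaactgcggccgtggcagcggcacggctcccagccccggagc
The matches were GAAAGAGAAA, which begins at position -83 from the start, and GAAACCGAAA, which begins at position -77, and they overlap by 1 GAAA. Both strands were searched, and 3.44% of the 32851 windows held the motif. The letters of TTCNNNGAA are not in this window.

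Socs3 was dim, with most signals under the floor. SOCS3 blocks JAK2 while bound to receptor chains such as gp130 and the erythropoietin receptor. The U74A probe set 92232_at had signals of 45.3 after 30 min and 21.8 after 2 h in Stat5 siRNA cells, and 3.43 without IL-3, 119 after 30 min and 38.2 after 2 h in control siRNA cells. The U74B probe set 111736_at had 36.6 and 32.5 in Stat5 siRNA cells, and 22.8, 127 and 67.8 in control siRNA cells. The other U74A probe set, 162206_f_at, which can cross-hybridise, had 98.3 and 66.3 in Stat5 siRNA cells, and 35.3, 168 and 92.3 in control siRNA cells.

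On 3 of 3 Socs3 probe sets the highest signal was that of control siRNA with IL-3 for 30 min and the lowest that of unstimulated cells. On 3 of 3 the signal with Stat5 siRNA was below that with control siRNA at 30 min and also at 2 h. The share of control signal at 30 min was 38.2%, 28.8% and 58.4%, in the order the probe sets were given, and at 2 h 57.1%, 48.0% and 71.8%. Only 2 of these 15 signals reached the floor, both with control siRNA at 30 min, and signals under it have no reliable order. As a gene Socs3 was therefore at least 1.06-fold higher with IL-3 at 30 min and at least 1.06-fold lower with Stat5 siRNA, and not called in either comparison. With the floor halved the 30 min values were at least 1.03 with IL-3 and -1.03 or lower with Stat5 siRNA on the log2 scale, past 2-fold.

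The Socs3 promoter is shown for its single match to the STAT motif. The window is chr11:117969317-117969616 on the - strand of GRCm38.p6, from RefSeq, with TTCNNNGAA in capitals.
Socs3: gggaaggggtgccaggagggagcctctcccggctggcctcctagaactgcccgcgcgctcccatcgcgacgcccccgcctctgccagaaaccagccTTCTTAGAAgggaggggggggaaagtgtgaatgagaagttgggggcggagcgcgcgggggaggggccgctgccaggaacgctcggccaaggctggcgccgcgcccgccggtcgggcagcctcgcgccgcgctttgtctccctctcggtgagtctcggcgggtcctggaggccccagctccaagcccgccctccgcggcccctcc
The match, TTCTTAGAA, begins at position -154 from the start. The table held windows for 4 of the 8 family genes, and the fourth, Socs4, had no match to either motif.

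Socs2 is a known STAT5 target in liver, where it limits growth hormone signalling, but it was not called in either IL-3 comparison or either siRNA comparison. The U74A probe set 99475_at had signals of 294 after 30 min and 427 after 2 h in Stat5 siRNA cells, and 260 without IL-3, 265 after 30 min and 383 after 2 h in control siRNA cells. The U74B probe set 113301_at had 188 and 228 in Stat5 siRNA cells, and 186, 186 and 229 in control siRNA cells. The remaining probe set stayed under the floor on all 5 arrays. On both measured probe sets the 2 h signals were the higher ones, and the siRNA groups lay close together at each time. The gene's log2 ratio was 0.43 for IL-3 at 2 h, larger than the SD of 0.32 but under 2-fold. For Stat5 siRNA it was 0.08 at 30 min and 0.08 at 2 h, within the SD, which on 1 array each does not show that Socs2 was unaffected.

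**Figure D2:**
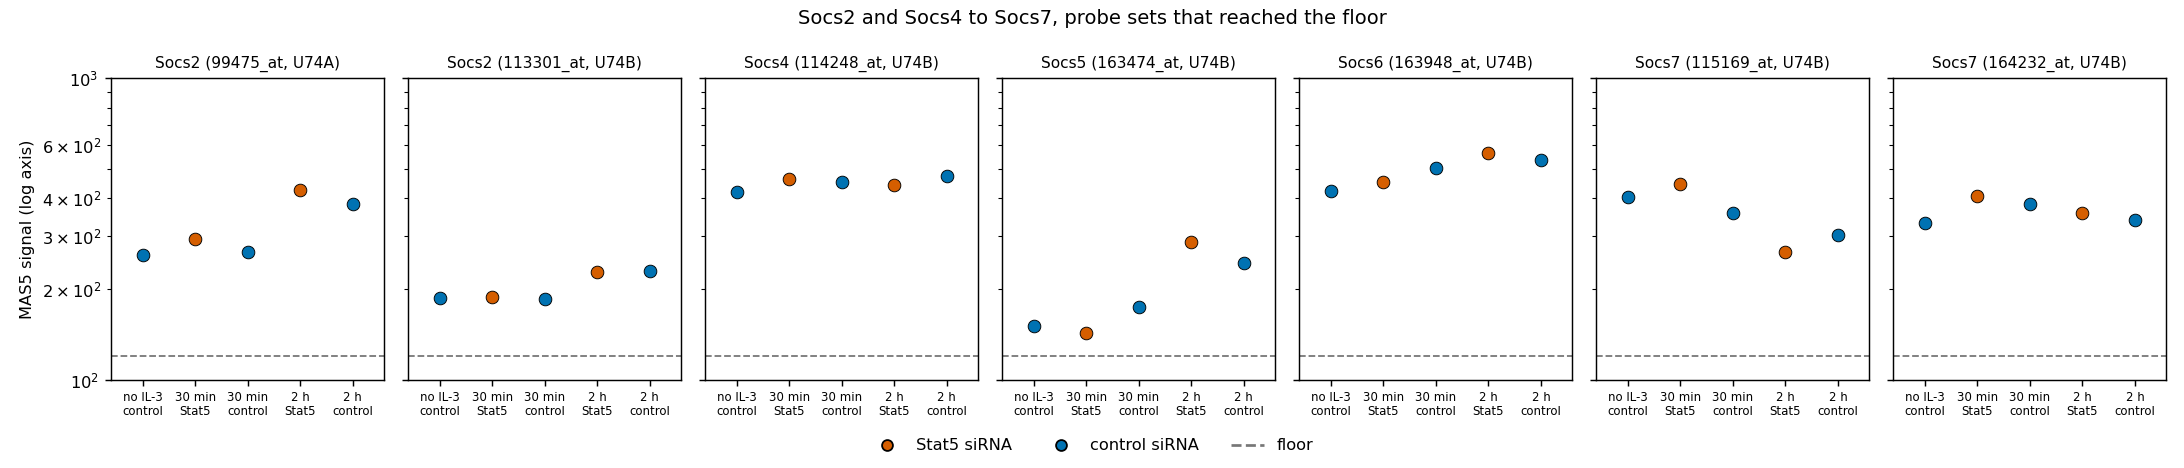
MAS5 signals (log axis) of the Socs2, Socs4, Socs5, Socs6 and Socs7 probe sets that reached the floor, 1 point per array, with Stat5 siRNA in orange, control siRNA in blue and the floor dashed. The signals of each probe set span 1.13-fold (Socs4) to 2.01-fold (Socs5) from lowest to highest.

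Socs4 and Socs6 were each read on 1 probe set and passed 2-fold in no comparison. SOCS4 has been linked to signalling from the EGF receptor, and SOCS6 to signalling from receptor tyrosine kinases including KIT. The 1 Socs4 probe set that reached the floor, 114248_at, had 465 after 30 min and 444 after 2 h in Stat5 siRNA cells, and 420 without IL-3, 452 after 30 min and 474 after 2 h in control siRNA cells. The corresponding Socs6 probe set, 163948_at, had 455 and 565 in Stat5 siRNA cells, and 422, 503 and 537 in control siRNA cells. The highest signal was 1.13 times the lowest for Socs4 and 1.34 times for Socs6. The other 4 probe sets of these genes stayed under the floor.

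Socs5 and Socs7 gave mixed readings. SOCS5 has been described as an inhibitor of IL-4 and EGF receptor signalling, and SOCS7 binds adaptor proteins such as NCK. The Socs5 probe set 163474_at had 143 after 30 min and 288 after 2 h in Stat5 siRNA cells, and 150 without IL-3, 174 after 30 min and 244 after 2 h in control siRNA cells. Its log2 ratio for IL-3 at 2 h was 0.70, under 2-fold. For Stat5 siRNA it was -0.29 at 30 min and 0.24 at 2 h, the first beyond and the second within the SD. In the Stat5 siRNA cells it was 2.01-fold higher at 2 h than at 30 min, where 1.64% of 8247 genes were called higher. The log2 ratio of 1.01 became 0.48 with the floor halved, at least 0.26 with a doubled one, 0.93 with median scaling and 0.87 with a pseudocount of 32 in place of the floor, none of them past 2-fold. A second Socs5 probe set, on U74A, lay between 81.0 and 98.3 and so under the floor on all 5 arrays, with 81.0 at 2 h and 83.8 at 30 min in the Stat5 siRNA cells. The remaining Socs5 probe set, which can cross-hybridise, was under the floor throughout.

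The measured Socs7 probe sets disagreed in direction with IL-3 at both times and for Stat5 siRNA at 2 h. They had the same direction for Stat5 siRNA at 30 min, and from 30 min to 2 h with either siRNA. The first, 115169_at, had 445 after 30 min and 265 after 2 h in Stat5 siRNA cells, and 405 without IL-3, 357 after 30 min and 303 after 2 h in control siRNA cells. The second, 164232_at, had 407 and 358 in Stat5 siRNA cells, and 332, 383 and 340 in control siRNA cells. The first was below its unstimulated signal at both times in control siRNA cells and the second above it. The gene value stayed between -0.19 and 0.20 in the 4 comparisons of IL-3 and of Stat5 siRNA. From 30 min to 2 h it was -0.47 in Stat5 siRNA cells and -0.20 in control siRNA cells. The remaining probe set never reached the floor.

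As a family, 2 of 8 measured genes, Cish and Socs1, were 2-fold or more higher after 30 min of IL-3, where 0.711% of all 8155 measured genes were, and 0.47% of the 6597 on U74A and U74B, the designs that carry the family. After 2 h it was 1 of 7, Cish, where 2.45% of 8294 genes were and 2.38% on U74A and U74B. With Stat5 siRNA 2 of 8 were lower at 30 min, Cish and Socs1, where 0.382% of 8124 genes were and 0.181% on U74A and U74B. At 2 h it was 1 of 7, Cish, where 0.43% of 8132 genes were and 0.301% on U74A and U74B. The same control siRNA arrays with IL-3 enter the IL-3 ratios and the siRNA ratios, so a high signal on one of them would raise the first and lower the second. No measured family gene was called lower with IL-3, where 0.343% of genes were at 30 min and 1.63% at 2 h (0.0606% and 1.62% on U74A and U74B). Likewise 0 were called higher with Stat5 siRNA, where 0.308% of genes were at 30 min and 0.504% at 2 h (0.181% and 0.331% on U74A and U74B). Without IL-3 Cish, Socs1 and Socs3 were under the floor, so none of them could be called lower with IL-3. With Stat5 siRNA Socs1 and Socs3 were under it at both times, so neither could be called higher there. From 30 min to 2 h in control siRNA cells 1 of 8 was lower, Socs1, where 1.65% of 8234 genes were (1.73% on U74A and U74B), and 0 were higher, where 1.89% were (1.86%). Socs3 was under the floor at 2 h with control siRNA, so it could not be called higher over this interval. Over the same interval in Stat5 siRNA cells 1 of 6 was higher, Socs5 (1.62% on U74A and U74B), and 0 were lower, where 1.19% were (1.2%). The family's median log2 ratio was 0.16 and 0.35 for IL-3 at 30 min and 2 h, against -0.0070 and -0.033 over all genes, and -0.12 and -0.058 for Stat5 siRNA. Socs2 and Socs4 to Socs7 lay between 0.0095 and 0.25 for IL-3 at 30 min, and between -0.29 and 0.20 for Stat5 siRNA at 30 min.

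**Figure D3:**
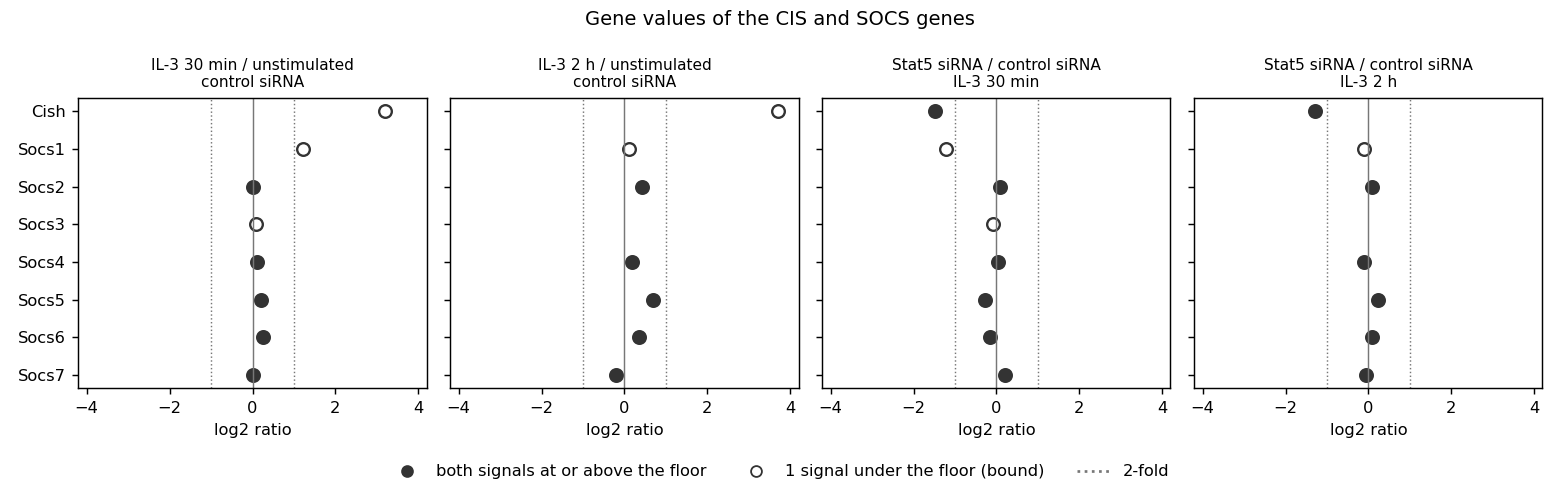
Log2 ratios of the 8 family genes (rows) in the 4 comparisons, with open circles where 1 signal was under the floor (a bound) and dotted lines at 2-fold. Cish passes 2-fold in all 4 panels and Socs1 in the 2 panels for 30 min, while Socs3 is missing at 2 h, where neither array reached the floor.

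**Figure D4:**
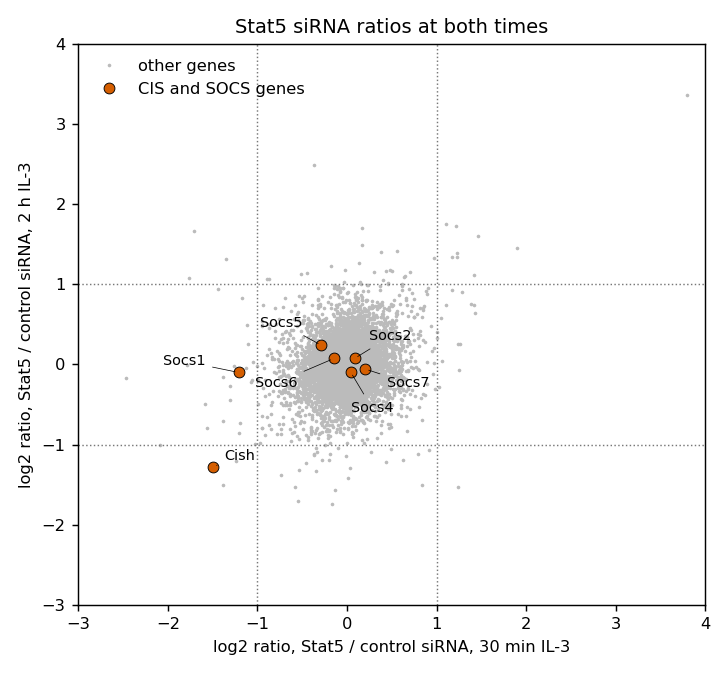
Log2 ratio of Stat5 siRNA over control siRNA at 30 min (x axis) and 2 h (y axis) for all genes measured at both times in grey and the family in orange. Cish, at -1.49 and -1.28, lies past 2-fold on both axes, Socs1 past it at 30 min only (both its values are bounds), and the other labelled genes within it.

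Pattern over the 5 conditions was compared between genes by the root mean square difference of log2 signals, each taken from its own mean, over 10150 probe sets. Nearest to Cish were Phlda1 (difference 0.45, Pearson r 0.95 over 5 conditions), Bhlhe40 (0.52, r 0.96), Ikzf4 (0.59, r 0.98), Id1 (0.62, r 0.88) and Xbp1 (0.66, r 0.91). Phlda1 is an early gene of growth factor signalling and Bhlhe40 a transcriptional repressor. Bhlhe40 had signals of 485 after 30 min and 816 after 2 h in Stat5 siRNA cells, and 347 without IL-3, 1143 after 30 min and 1890 after 2 h in control siRNA cells. It therefore had the same order of the 5 arrays as Cish. Nearest to Socs1 were Tada3 (0.098), Oas1b (0.10), Zfp449 (0.14), Celsr3 (0.16) and 4930430F08Rik (0.16). That likeness rests largely on 1 condition, control siRNA with IL-3 for 30 min. Socs1 had 3 of its 5 signals under the floor. Tada3, Oas1b, Zfp449 and 4930430F08Rik reached the floor only in that condition. Of these 5 nearest genes, 4 were read on U74C. Nearest to Socs5 were Sinhcaf (0.042), Dus4l (0.071), Atp13a3 (0.071), Aimp2 (0.077) and Utp15 (0.079), all with r of at least 0.98. Sinhcaf and Dus4l were under the floor without IL-3 and with Stat5 siRNA at 30 min. Part of their likeness thus comes from signals raised to the floor. Of the genes nearest to Cish, Phlda1 and Id1 were under the floor without IL-3, as was Cish. Genes read on the same design share their arrays.

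**Figure D5:**
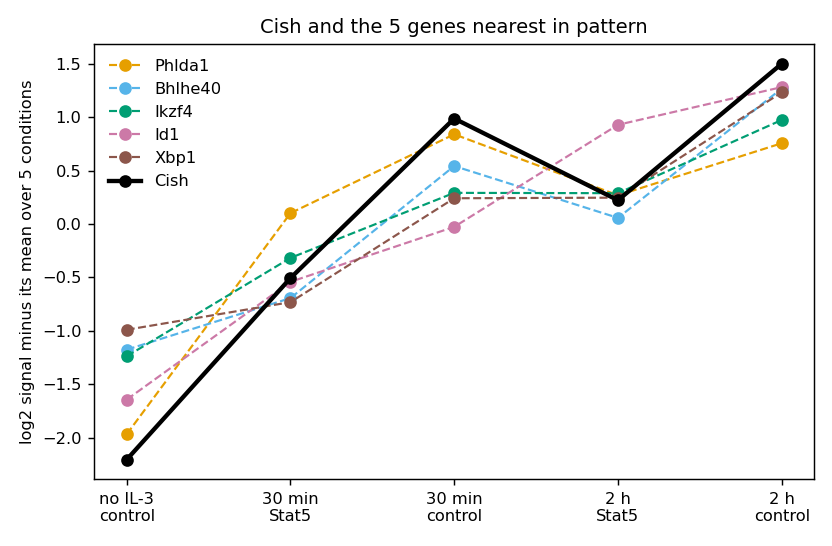
Log2 signal, floored and taken from its mean over the 5 conditions, for Cish (black, solid) and the 5 genes nearest to it in pattern (dashed), with lines only to guide the eye. All 6 are lowest without IL-3, and for Cish, Bhlhe40, Phlda1, Ikzf4, Id1 and Xbp1 the Stat5 siRNA point lies below the control siRNA point at each time.

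STAT5 targets known in blood cells were read next. With the family left out, 6 of 12 measured targets were higher after 30 min of IL-3 and 0 lower, where 0.711% of all genes were higher, with a median log2 ratio of 0.92. The activation marker Cd69 was at least 6.52-fold, the phosphatase gene Dusp5 6.26-fold and Myc at least 4.40-fold higher. After 2 h 8 of 12 were higher, where 2.45% of all genes were, and 0 lower (median 1.34), led by Id1 (at least 7.60-fold), Bhlhe40 (5.44-fold) and the survival gene Bcl2l1 (at least 4.27-fold). Cd69 and Myc at 30 min and Id1 and Bcl2l1 at 2 h were measured only through their IL-3 arrays. They could therefore not come out lower. With Stat5 siRNA 1 of 12 was lower at 30 min, where 0.382% of all genes were, and 0 higher (median -0.29), Bhlhe40 at -1.24, followed by Cd69 at 0.58 and Tnfrsf13b at -0.55. At 2 h 3 of 14 were lower, where 0.43% of all genes were, and 0 higher (median -0.18): Tnfrsf13b, a receptor for BAFF and APRIL (-1.70), Bhlhe40 (-1.21) and the kinase gene Pim2 (-1.05). Results for Bhlhe40 and Tnfrsf13b in these data were known when the list was made, so counts that include them are no independent evidence. Bhlhe40 was the only target called with Stat5 siRNA at 30 min. At 2 h Pim2 was the only one called besides Bhlhe40 and Tnfrsf13b.

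The receptor and kinases act upstream of the family. Of 12 measured genes for IL-3 receptor chains, JAKs and STATs, 0 passed 2-fold with IL-3 at 30 min (median 0.10). At that time 0.711% of all genes were higher and 0.343% lower. Stat2, a transcription factor of the interferon response, was at -0.53, Jak2 at -0.43 and Tyk2 at 0.30 or higher. After 2 h 1 was lower, where 1.63% of all genes were, Stat5b (-1.60), with Stat2 at -0.77 and Stat3 at 0.48 (median 0.091). With Stat5 siRNA at 30 min 2 of 12 were lower, where 0.382% of all genes were, the targets Stat5b (-1.59) and Stat5a (-1.03). The IL-3-specific beta chain gene Csf2rb2 was at -0.65, and the list median was -0.12. At 2 h 0 of 12 passed 2-fold (median -0.15), where 0.504% of all genes were higher and 0.43% lower. Stat5a was at -0.99 or lower, Stat2 at 0.58 and Stat5b at -0.49. Csf2rb2 had a signal of 1619 in Stat5 siRNA cells at 30 min, against 2542 in control siRNA cells, and 2192 against 2689 at 2 h. Il3ra, the alpha chain, had 126 against 145 at 30 min and 165 against 159 at 2 h.

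Inhibitors of JAK-STAT signalling outside the family are mainly phosphatases and ubiquitin pathway proteins. Their counts stand beside shares of 0.308% to 2.45% of all genes called in a given direction in these comparisons. With IL-3 at 30 min 0 of 12 passed 2-fold (median 0.061), with the phosphatase genes Ptpn2 at -0.79 or lower, Ptpn1 at 0.32 and Ptpn6, which encodes SHP-1, at 0.23. The Ptpn2 value is the median of probe sets that disagree, -0.025 on U74A and -1.55 or lower on U74C. After 2 h 2 of 12 were higher, where 2.45% of all genes were, and 0 lower (median -0.034). The phosphatase gene Dusp3 was 2.10-fold higher, and Sh2b3, the gene of the JAK2-binding adaptor LNK, at least 2.00-fold higher, just at the threshold. The ubiquitin ligase gene Cblb was at -0.94 or lower. With Stat5 siRNA 0 of 12 passed 2-fold at 30 min (median -0.033; Ptprc -0.32, Ptpn6 -0.25, Ptpn2 at least 0.24). At 2 h 0 of 13 did (median -0.071). Usp18, a brake on interferon receptor signalling, was at least 0.53, Ptpn1 -0.28 and Ptpn11 0.25.

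Partners that the SOCS box recruits were also read. Elongins B and C (Elob, Eloc) bind the box, and cullin 5 (Cul5) with its RING partner Rnf7 forms the ligase. Of 8 measured partner genes 0 passed 2-fold with IL-3 at 30 min (median 0.024) or at 2 h (median 0.068). Of 7 measured with Stat5 siRNA 0 did at 30 min (median 0.019) or at 2 h (median -0.022). Over all genes, between 0.308% and 2.45% were called in a given direction in these comparisons. The bright Elob probe set had 2331 in Stat5 siRNA cells, against 2331 in control siRNA cells at 30 min, and 2071 against 2111 at 2 h. The members furthest from 0 with IL-3 were Ube2f (-0.40 or lower at both times, on a U74C probe set that can cross-hybridise), Arih2 (0.37 at 30 min, at least 0.29 at 2 h), Cul2 (-0.21 at 30 min) and Cul5 (0.28 or lower at 2 h). With Stat5 siRNA they were Nedd8 (-0.34 at 30 min, -0.19 at 2 h), Cul5 (0.20 at 30 min, at least 0.18 at 2 h), Arih2 (at least 0.15 at 30 min) and Rnf7 (0.35 at 2 h). The Cul5 value at 2 h of IL-3 joins probe sets that disagree, at -0.078 or lower on U74B and 0.64 on U74C.

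Other SOCS box proteins are substrate receptors without the SH2 domain of the family. The counts past 2-fold, where between 0.308% and 2.45% of all genes were called in a given direction, were 0 of 11 for IL-3 at 30 min (median -0.024), 0 of 13 at 2 h (-0.016), 0 of 11 for Stat5 siRNA at 30 min (0.057) and 0 of 13 at 2 h (-0.072). The largest with IL-3 at 30 min were Wsb1 (0.79) and Asb1 (0.74), both higher on each of their probe sets, and Asb8 (-0.30). At 2 h they were Wsb2 (at least 0.58), Asb1 (0.54) and Asb4 (0.52). With Stat5 siRNA they were Asb11 (0.32), Asb6 (0.27) and Asb4 (-0.20) at 30 min, and Asb4 (-0.46), Asb6 (-0.43) and Asb11 (0.24) at 2 h, with Asb6 read on a U74C probe set that can cross-hybridise.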

How the data were processed

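Probe set signals were measured on 15 Affymetrix arrays, 1 per condition for each of the 3 designs U74A, U74B and U74C. The deposited values are linear intensity values (signals) that the authors computed with MAS5, per the series' design text and the submitters' processing notes. Their 2% trimmed mean lay between 150.0 and 150.1. Detection calls were not used here, and batches are not given in the sources used here. Whether the arrays of the 3 designs came from 1 culture per condition is not stated.

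Arrays were grouped by title and scaled to a common trimmed mean. The floor of 119.9 and the 2-fold threshold were applied as described above, and log2 ratios were taken within a design. A probe set was measured in a comparison if either array reached the floor. Probe sets whose suffix marks possible cross-hybridisation entered a gene only where it had no other. In the platform annotation 29131 probe sets had 1 symbol, 724 had several and 6846 had no symbol. Checked against the RefSeq table, 0 symbols were out of date. Precision is limited by having 1 array per group, and there are no p-values. The family members and the 6 gene lists were chosen with earlier results of these data known. Named are all family genes, Stat5a and Stat5b, the 3 genes per list with the largest log2 ratio in either direction in each of 4 comparisons, and the 5 nearest patterns of each member spanning 2-fold. A few further genes (Irf1 at 2 h and without IL-3, Csf2rb2, Il3ra and Elob) were given for context after their values were seen. Calls were tested on simulated data in which the changed probe sets lay well above the floor and changed by clearly more than 2-fold. The simulated noise was smaller than the SD of a ratio given above. The simulation therefore does not show how well changes near 2-fold or in dim probe sets are called. Whether calls close to 2-fold or near the floor, such as those of Socs1, would hold on repeat arrays was not tested. Python 3.11.15, numpy 2.4.6 and pandas 2.3.3 were used.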

Additional observations from a re-analysis of the deposited data

How the results depend on the processing

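The 9 alternatives left 95 of 108 counts of family genes within 1.5 times of the value reported, and no called ratio of a family gene changed sign. Many of these counts were 0 as reported and stayed 0, so this share says little about how stable the calls are. Cish and Socs1 have 1 probe set each, so alternatives that change the choice among probe sets could not move them. Cish was called in both IL-3 and both siRNA comparisons in each of the 9. With the floor doubled, 1 family gene in place of 2 was higher with IL-3 at 30 min, 1 in place of 2 was lower with Stat5 siRNA at 30 min, and 0 in place of 1 were lower from 30 min to 2 h in control siRNA cells, each by the loss of Socs1. That last count was also 0 with log2(signal + 32). Socs3 was added at 30 min to the count higher with IL-3 and to the count lower with Stat5 siRNA. Each was then 3 in place of 2, with the floor halved, with signals not raised and with log2(signal + 32). A change from 2 to 3 is exactly 1.5 times and so was counted as within that range. With IL-3 at 2 h the count higher was 2 in place of 1, by the addition of Socs1, with the floor halved, with signals left unraised and with log2(signal + 32). With Stat5 siRNA at 2 h the count lower was 2 in place of 1, again with Socs1, with the floor halved and with signals not raised. From 30 min to 2 h with Stat5 siRNA the count higher was 0 in place of 1 (Socs5) with a halved or doubled floor, with median scaling and with log2(signal + 32). The alternatives to the floor act through its construction. For median scaling the cause was not tested. Signals near or under the floor, those of Socs1 and Socs3, limit what these arrays show. No paired analysis was possible because each condition had 1 array per design.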
